A study of Homo sapiens with 6 samples.

Results

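The synaptic vesicle and exocytosis machinery of IMR32 cells was described from RNA sequencing after treatment with sAKZ692 or its solvent DMSO. Its members were taken by gene symbol alone: synaptotagmins (SYT), SNAP, VAMP, STX and RIMS genes with a number, the STXBP, CPLX, SYNGR, SCAMP, UNC13, SV2, DOC2 and CADPS genes, and SYP, NSF, the synapsins and RAB3A to RAB3D. This gave 59 genes of 11351 in the table. IMR32 is an established human neuroblastoma line with an amplified MYCN gene, and it is the only cell line of the study. One group received 20 µM sAKZ692, a compound with a code name that the design text calls an activator of the transcription factor NRF2. The other received DMSO, and both were collected at 24 h with 3 libraries each. The labels do not say whether the libraries came from separate cultures, so the p-values measure only the spread between these samples, which may be technical.

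A neurotransmitter or hormone is released when a vesicle fuses with the plasma membrane. SNARE proteins on the vesicle (VAMP) and on the target membrane (syntaxin and SNAP25) zip together and pull the membranes close. UNC13 proteins prepare the SNAREs, complexins clamp them, RAB3 and RIM proteins hold the vesicle at its release site, and synaptotagmins trigger fusion when calcium enters. NSF then takes the SNARE complex apart for another round. Neuroblastoma cells derive from the sympathetic lineage, which uses this machinery to release catecholamines and peptides.

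Values are TPM, relative transcript abundances, which correct for transcript length and so allow levels to be compared between genes of a library. The labels give 1 nominal read depth for all libraries, and TPM does not show the depth each reached. The genes in the table took up 65.9% of the TPM scale in sAKZ692 replicate 3, where the remaining libraries had 61.2% to 61.9%. On log2(TPM + 1) over the 9137 genes tested, Pearson's r between sAKZ692 replicate 3 and its group's replicates 1 and 2 was 0.971 and 0.972, and between replicates 1 and 2 it was 0.992. Member calls that change without replicate 3 are given both ways. MYCN, amplified in this line, was at 1382, 1376 and 1539 TPM with sAKZ692, against a mean of 1389 TPM with DMSO.

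The limma test on the whole table took genes averaging 1 TPM or more, and 53 of the 59 members did. With sAKZ692, 28 of these 53 were higher and 0 were lower at a Benjamini-Hochberg adjusted p under 0.05, and 25 did not pass. That is 52.8% of the members, where 24.1% of all genes tested were called higher and 8.5% lower. Among the members that did not pass, 22 had a log2 fold change above 0 and 3 below 0. An increase of at least 1 on the log2 scale was called in 9 members (17%), against 4.29% of all genes. The sAKZ692 libraries all lay above the DMSO libraries in 34 members (64.2%), as they did in 35.9% of all genes tested, and all below in 0, against 14.6%.

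The median log2 fold change of the members was 0.49, and that of all genes tested was 0.14. Scaling each library by its median ratio moved the median of all genes to 0.00, so a gene at 0 on the deposited scale lay below the median gene. On that scaling 22 members were higher (41.5%, against 15% of all genes) and 1 was lower (against 16.2%), with a member median of 0.35. Quantile normalization gave 16 higher (30.2%, against 11.7%) and 0 lower (against 13%), with a median of 0.21. Without replicate 3 of sAKZ692, 34 were higher (64.2%, against 34.6%) and 0 lower (against 14.5%), with a median of 0.46. Without DMSO replicate 2, which gave the smallest count of the libraries left out, 18 members were higher (against 13.3% of all genes) and 0 lower (against 4.42%). With the replicate number as a block, 24 were higher (against 20.4%) and 0 lower (against 6.96%). The members' summed TPM was 1658, 1579 and 1722 in the sAKZ692 libraries and 1189, 1201 and 1136 in the DMSO libraries. In bulk RNA, more cells that carry a transcript and more transcript per cell cannot be told apart.

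**Figure D1:**
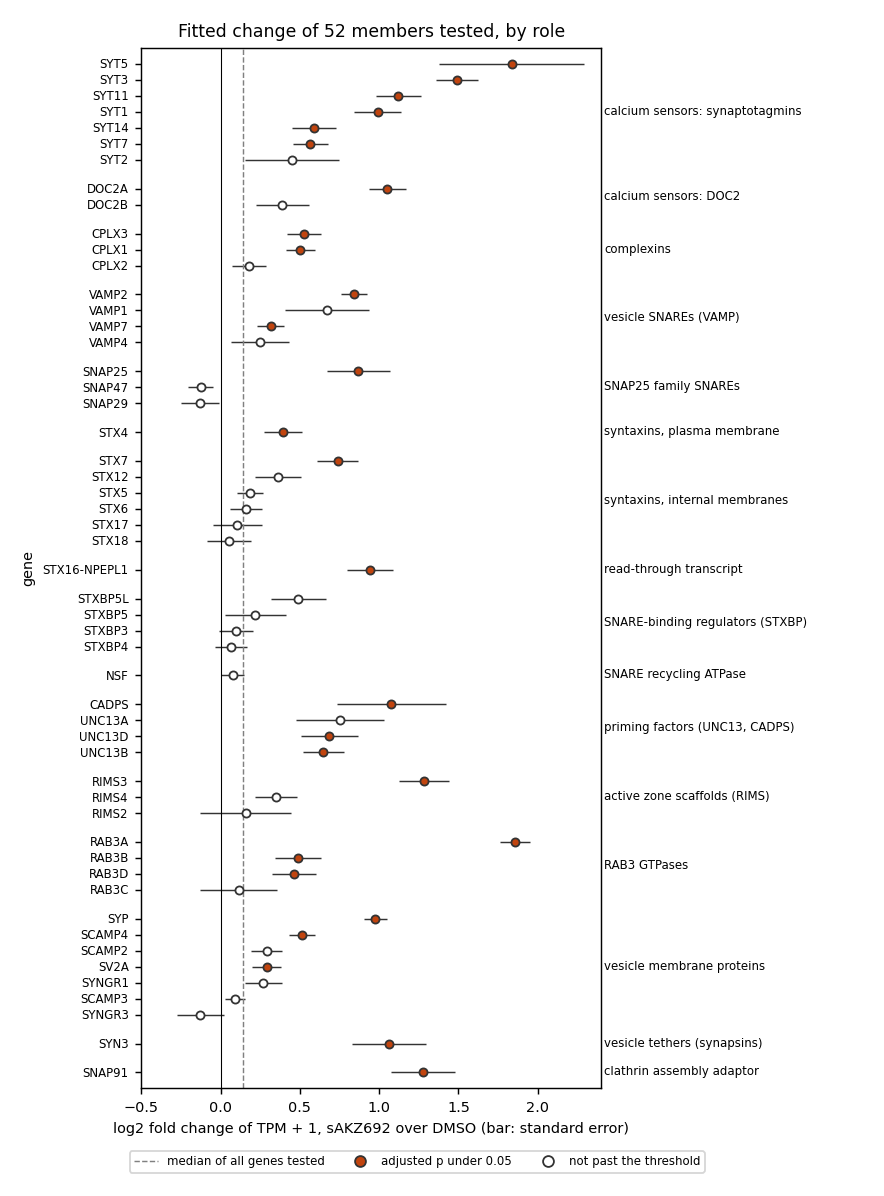
Fitted log2 fold change of TPM + 1, sAKZ692 over DMSO, for 52 of the 53 members tested, grouped by role, with standard errors. Filled points passed the adjusted p threshold of 0.05 and open points did not, and the dashed line is the median of all genes tested, 0.14. The 27 filled points all lie to the right of that line.

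The members were also split by where they are best known, in a coarse textbook grouping made with earlier results of these data known. Some placings are debatable: RAB3B, found in endocrine and exocrine cells, was put with the other tissues. Among 30 tested genes known mainly from neurons or neuroendocrine cells, 19 were higher and 0 lower, with a median log2 fold change of 0.68. Among 22 tested genes known from many cell types or other tissues, 8 were higher and 0 lower, with a median of 0.23. On median-ratio scaling the counts were 17 higher and 0 lower in the neuronal group, and 4 higher and 1 lower in the other. Without replicate 3 of sAKZ692 they were 22 and 11 higher, with 0 lower in each. Of all genes tested, 24.1% were higher in the fit of all libraries, 15% on median-ratio scaling and 34.6% without replicate 3. The summed TPM of the neuronal group was 1076, 1010 and 1156 with sAKZ692, against 695, 685 and 645 with DMSO. That of the other group was 580, 566 and 563 with sAKZ692, against 493, 514 and 490 with DMSO. The difference between these groupings was not tested.

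**Figure D2:**
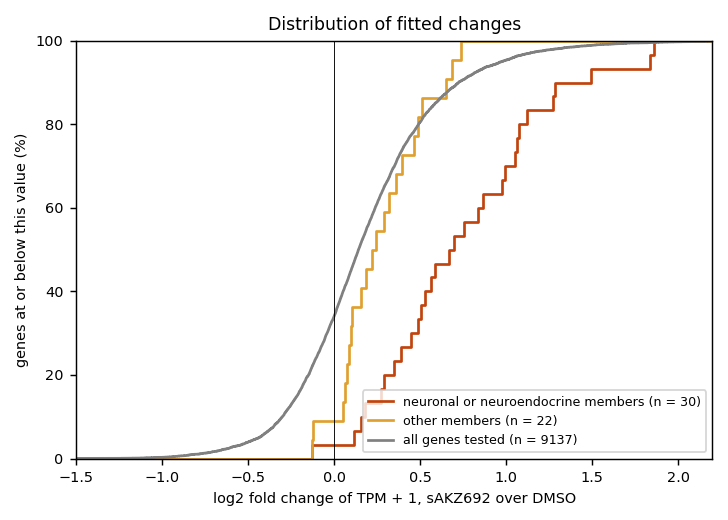
Cumulative share of genes, in percent, at or below each fitted log2 fold change of TPM + 1 (sAKZ692 over DMSO). Shown are the 30 neuronal or neuroendocrine members, the 22 other members and all 9137 genes tested. The neuronal curve lies to the right, with a median of 0.68 against 0.23 for the other members and 0.14 for all genes.

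Since the study's design text names sAKZ692 as an NRF2 activator, the 250 bases before each annotated start were searched on both strands for the core of the antioxidant response element, TGACNNNGC, which NRF2 binds with a small MAF partner. The cAMP response element TGACGTCA and its core TGACG, bound by CREB and ATF factors, the E-box CACGTG and the AP-1 site TGANTCA were searched in the same way. RefSeq promoter entries on GRCh38.p14 were matched for 45 of the 59 members. TGACNNNGC occurred in 6 of them (13.3%), in 13.2% of the 27195 genes with an entry and in 15.7% of the tested genes with one. TGACG, which lies within TGACGTCA and can overlap TGACNNNGC, occurred in 17 members (37.8%), against 24.8% of all genes and 36.5% of the tested genes with an entry. CACGTG occurred in 10 (22.2%), against 7.74% of all genes and 11.8% of those tested. The member shares also count members that were not tested: STXBP2 and SYT6 held CACGTG, and STXBP2 held TGACG. TGACGTCA occurred in 2 (4.44%), against 2.04% of all genes and 3.61% of those tested. TGANTCA occurred in 1, RAB3B (2.22%), against 8.02% of all genes and 5.59% of those tested. A gene can have several annotated starts, and a match describes letters, not a bound site.

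Of the 21 members called higher that had an entry, 2, STX4 and STX7, held TGACNNNGC, 10 held TGACG and 3 held CACGTG. Of these 21, 0 held TGACGTCA and 1, RAB3B, held TGANTCA. Of the tested genes with an entry, 15.7%, 36.5%, 11.8%, 3.61% and 5.59% held these letters, in the same order. Of the stretches below, those of STX7 and SNAP47 lie inside the gene's GENCODE v29 span, before a start annotated within it. All lie outside GENCODE v29 exons and run 5′ to 3′ on the gene's strand, with the matched letters of either strand in capitals. They are shown for RAB3A, a member with a large fitted rise, which held TGACG in the reverse orientation, and for STX7, STX5 and SNAP47 (TGACNNNGC) and STX12 and STXBP3 (TGACGTCA), which, apart from STX7, were not called.
RAB3A, chr19:18204151-18204185, minus strand: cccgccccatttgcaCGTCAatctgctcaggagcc
RAB3A, chr19:18204109-18204143, minus strand: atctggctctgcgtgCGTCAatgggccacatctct
STX7, chr6:132512897-132512935, minus strand: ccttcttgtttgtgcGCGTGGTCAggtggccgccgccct
STX5, chr11:62832182-62832220, minus strand: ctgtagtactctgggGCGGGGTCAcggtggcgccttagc
SNAP47, chr1:227735568-227735606, plus strand: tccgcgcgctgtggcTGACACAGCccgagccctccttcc
STX12, chr1:27773010-27773047, plus strand: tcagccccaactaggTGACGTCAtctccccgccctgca
STXBP3, chr1:108746581-108746618, plus strand: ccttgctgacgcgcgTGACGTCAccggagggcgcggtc

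Of 7 synaptotagmins tested, 6 were higher, where 24.1% of all genes were, and the seventh, SYT2, did not pass. Several synaptotagmins sense calcium. SYT1 (ENSG00000067715.13), the main sensor for fast synchronous release, was at 98.4, 93.6 and 141 TPM with sAKZ692, against 55.1, 55.7 and 52.4 TPM with DMSO. SYT11, which does not bind calcium and acts in vesicle retrieval, was at 43.9, 38.9 and 58.3 TPM with sAKZ692, against 21.5, 20.5 and 20.4 TPM with DMSO. In both genes every sAKZ692 library lay well above every DMSO library, and replicate 3 was the highest. The log2 fold change was 0.99 (standard error 0.15) for SYT1 (adjusted p = 0.0031) and 1.12 (standard error 0.14) for SYT11 (adjusted p = 0.0018). Without replicate 3 they were 0.81 and 0.96.

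SYT3, a high-affinity sensor found on the plasma membrane, was at 11.8, 9.90 and 12.1 TPM with sAKZ692, against 3.10, 3.86 and 3.14 TPM with DMSO. Its groups were far apart, with a ratio of mean TPM of 3.35 and a log2 fold change of 1.49 (adjusted p = 0.00061). SYT7, the sensor of slow, asynchronous release, was at 22.7, 20.8 and 18.0 TPM with sAKZ692, against 14.1, 13.9 and 12.4 TPM with DMSO, a log2 fold change of 0.57 (adjusted p = 0.0086). SYT14, a member without calcium binding, was at 5.67, 5.91 and 7.74 TPM with sAKZ692, against 3.92, 3.94 and 3.90 TPM with DMSO. Its log2 fold change was 0.59 (adjusted p = 0.017). That call was lost on quantile normalization (adjusted p = 0.38) and without any 1 DMSO library (0.061, 0.060 and 0.060).

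Replicate 3 decided the size of the change in SYT5 and SYT2, in opposite directions. SYT5, a sensor of dense-core vesicles, was at 3.84, 3.23 and 14.1 TPM with sAKZ692, against 0.875, 0.569 and 1.31 TPM with DMSO. All 3 sAKZ692 libraries were above the DMSO libraries, and the log2 fold change was 1.84 (adjusted p = 0.020), or 1.26 without replicate 3 (0.00088). The SYT5 call was lost on quantile normalization (adjusted p = 0.067) and without any 1 DMSO library (0.065, 0.075 and 0.055). SYT2, another fast-release sensor, was at 9.52, 9.80 and 3.87 TPM with sAKZ692, against 5.49, 5.17 and 4.42 TPM with DMSO. Here replicate 3 lay below all DMSO libraries and the gene did not pass (log2 fold change 0.45, adjusted p = 0.28), whereas without replicate 3 it passed at 0.83 (adjusted p = 0.00068).

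Of the DOC2 proteins, soluble calcium sensors of spontaneous release, DOC2A rose. It was at 45.5, 53.1 and 60.1 TPM with sAKZ692, against 24.5, 23.1 and 27.1 TPM with DMSO, with a log2 fold change of 1.05 and a standard error of 0.12 (adjusted p = 0.0012). DOC2B was at 20.3, 15.7 and 13.1 TPM with sAKZ692, against 11.7, 14.0 and 10.6 TPM with DMSO. These ranges overlapped and DOC2B did not pass (adjusted p = 0.12), while without replicate 3 it did (log2 fold change 0.53, adjusted p = 0.013).

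**Figure D3:**
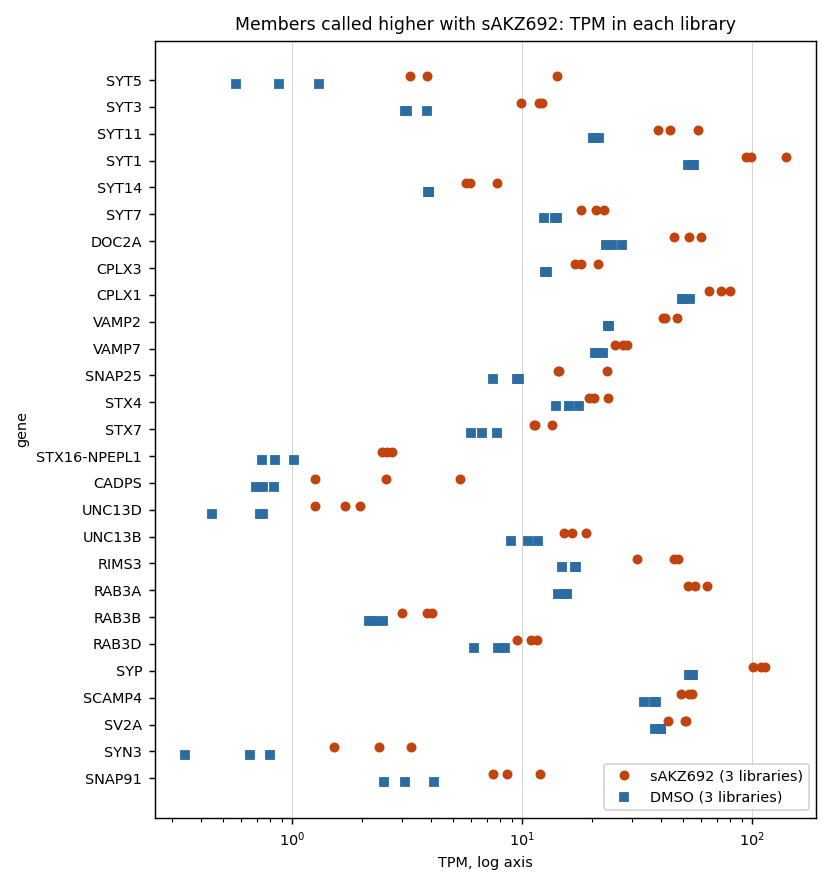
TPM on a log axis in each library for 27 of the 28 members called higher, with sAKZ692 (circles, 3 libraries) above DMSO (squares, 3 libraries) in each row. SYT5 and CADPS show 1 sAKZ692 library far to the right, at 14.1 and 5.36 TPM, while RAB3A and SYP have tight groups with a wide gap.

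The complexins, small proteins that hold the SNARE complex before calcium arrives, included the most abundant member of the set. CPLX2 was at 170, 155 and 203 TPM with sAKZ692, against 163, 154 and 145 TPM with DMSO. Its ranges overlapped and it did not pass (log2 fold change 0.18, adjusted p = 0.23). CPLX1 was at 80.2, 73.1 and 65.1 TPM with sAKZ692, against 49.3, 53.4 and 49.9 TPM with DMSO, a log2 fold change of 0.50 (adjusted p = 0.0063). CPLX3, known from retinal ribbon synapses, was at 18.1, 16.9 and 21.3 TPM with sAKZ692, against 12.5, 12.8 and 12.7 TPM with DMSO. Both of these rose without overlap of the groups, CPLX3 with a log2 fold change of 0.53 (adjusted p = 0.0093), a call lost on quantile normalization (0.090).

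Of the VAMP and SNAP25-family SNAREs, VAMP2, VAMP7 and SNAP25 rose and the other 4 did not pass, where 24.1% of all genes were higher. On median-ratio scaling VAMP2 and SNAP25 were higher, against 15% of all genes, and SNAP47 was lower, against 16.2%. VAMP2, synaptobrevin 2 of synaptic vesicles, was at 40.8, 41.6 and 47.1 TPM with sAKZ692, against 23.5, 23.6 and 23.9 TPM with DMSO. This was a tight separation, with a log2 fold change of 0.84 and a standard error of 0.08 (adjusted p = 0.00084). SNAP25, its partner on the plasma membrane, was at 14.4, 14.3 and 23.3 TPM with sAKZ692, against 7.43, 9.48 and 9.64 TPM with DMSO. Its log2 fold change was 0.87 (adjusted p = 0.014), or 0.65 without replicate 3 (0.0027). The SNAP25 call was lost on quantile normalization (adjusted p = 0.074) and without DMSO replicate 1 (0.059).

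VAMP1 was at 5.49, 5.64 and 11.4 TPM with sAKZ692, against 3.54, 5.08 and 3.83 TPM with DMSO, and did not pass (adjusted p = 0.088). VAMP7, a SNARE of late endosomes and of neurite growth, had a log2 fold change of 0.32 (adjusted p = 0.026). Its call was lost on both scalings (adjusted p = 0.15 and 0.18), without sAKZ692 replicate 2 (0.070) and without any 1 DMSO library (up to 0.10). VAMP4, a SNARE of the Golgi and endosomes, averaged 13.3 ± 2.69 TPM with sAKZ692 and 11.1 ± 2.11 TPM with DMSO (SD, n = 3 each) and did not pass. Without sAKZ692 replicate 3 VAMP4 passed, with a log2 fold change of 0.41 (adjusted p = 0.046) in place of 0.25. SNAP47 was at 43.2, 42.5 and 38.7 TPM with sAKZ692, against 43.0, 45.9 and 46.9 TPM with DMSO. SNAP47 did not pass on the deposited scale (log2 fold change -0.13, adjusted p = 0.25) and was the 1 member called lower on median-ratio scaling (-0.27, adjusted p = 0.037). SNAP29, a SNARE of autophagosome fusion, was at 25.3, 23.8 and 24.9 TPM with sAKZ692, against 30.2, 29.1 and 22.5 TPM with DMSO, with overlapping groups (adjusted p = 0.43).

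In the syntaxins, 2 of 7 tested passed, STX4 and STX7, where 24.1% of all genes were higher. On median-ratio scaling STX7 alone passed, against 15% of all genes. STX7, a late endosome and lysosome SNARE whose promoter stretch is printed above, was at 11.3, 11.3 and 13.5 TPM with sAKZ692, against 6.66, 7.78 and 5.99 TPM with DMSO. Its log2 fold change was 0.74 (adjusted p = 0.0056), and the groups did not overlap. STX4, the broadly used plasma membrane syntaxin, had a log2 fold change of 0.39 (adjusted p = 0.039). The STX4 call was lost on both scalings (adjusted p = 0.15 and 0.22), with the replicate block (0.083) and without any 1 library except sAKZ692 replicate 3 (0.052 to 0.13). STX12, an endosomal syntaxin, was at 12.1, 11.4 and 15.3 TPM with sAKZ692, against 11.5, 8.91 and 9.21 TPM with DMSO (adjusted p = 0.093). STX5, STX6, STX17 and STX18, which serve the Golgi, the endosomes, autophagy and the ER, had log2 fold changes of 0.18, 0.16, 0.10 and 0.05 and did not pass. STX6 passed without replicate 3 of sAKZ692 (adjusted p = 0.030).

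STX16-NPEPL1 names a read-through transcript of neighbouring genes. It was at 2.45, 2.70 and 2.59 TPM with sAKZ692, against 0.840, 0.736 and 1.02 TPM with DMSO (log2 fold change 0.94, adjusted p = 0.0037). It shares sequence with STX16 and NPEPL1, so the split of reads between them is uncertain.

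Among regulators that bind SNAREs, STXBP5L, a tomosyn that restrains SNARE assembly, was at 1.49, 1.80 and 2.13 TPM with sAKZ692, against 1.28, 0.857 and 0.853 TPM with DMSO (adjusted p = 0.064). STXBP3, STXBP4 and STXBP5 had log2 fold changes of 0.10, 0.06 and 0.22 and did not pass. NSF, the ATPase that recycles SNAREs, was at 114, 110 and 119 TPM with sAKZ692, against 104, 116 and 105 TPM with DMSO, with overlapping groups (log2 fold change 0.08, adjusted p = 0.45).

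Among 4 tested priming factors, UNC13B, UNC13D and CADPS rose, where 24.1% of all genes were higher. On median-ratio scaling UNC13B and UNC13D were higher, against 15% of all genes. UNC13B was at 16.4, 15.2 and 18.8 TPM with sAKZ692, against 11.7, 10.5 and 8.96 TPM with DMSO, a log2 fold change of 0.65 (adjusted p = 0.0086). UNC13A, the main synaptic priming factor, was at 9.15, 12.2 and 13.2 TPM with sAKZ692, against 10.6, 4.82 and 4.92 TPM with DMSO. Here DMSO replicate 1 overlapped the sAKZ692 libraries, and UNC13A did not pass (adjusted p = 0.072), while without that library it did (log2 fold change 1.08, adjusted p = 0.014). CADPS, which primes dense-core vesicles, was at 2.54, 1.25 and 5.36 TPM with sAKZ692, against 0.836, 0.742 and 0.692 TPM with DMSO. Its log2 fold change was 1.08 (adjusted p = 0.048), or 0.69 without replicate 3 (0.026). The CADPS call was lost under 9 alternative settings, among them both scalings (adjusted p = 0.063 and 0.19), without sAKZ692 replicate 1 (0.091) and without any 1 DMSO library (0.11 to 0.13).

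UNC13D, known from granule release in lymphocytes, was at 1.97, 1.70 and 1.26 TPM with sAKZ692, against 0.719, 0.749 and 0.449 TPM with DMSO. Its log2 fold change was 0.68 (adjusted p = 0.025), and it was lost on quantile normalization (0.19) and without any 1 library except sAKZ692 replicate 3 (0.063 to 0.092). RIMS3, a short RIM isoform of the active zone, was at 47.5, 45.7 and 31.6 TPM with sAKZ692, against 16.9, 17.1 and 14.8 TPM with DMSO. It was higher in every sAKZ692 library, least so in replicate 3, with a log2 fold change of 1.28 and a standard error of 0.16 (adjusted p = 0.0017). RIMS4 was at 20.2, 18.9 and 26.0 TPM with sAKZ692, against 17.2, 17.5 and 15.4 TPM with DMSO, and did not pass (adjusted p = 0.075). RIMS2, a long scaffold isoform, was at 4.60, 5.11 and 4.59 TPM with sAKZ692 and within the wider DMSO range of 4.79, 6.42 and 2.21 TPM (adjusted p = 0.70).

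RAB3A, the RAB3 GTPase most abundant on synaptic vesicles, had, with SYT5, the largest fitted rises of the members when all libraries were used, and SYT5 was the larger of the pair on median-ratio scaling (1.74, against 1.71 for RAB3A). It was at 63.8, 52.5 and 56.3 TPM with sAKZ692, against 15.3, 15.7 and 14.3 TPM with DMSO. The lowest sAKZ692 library was far above the highest DMSO library, the ratio of mean TPM was 3.81, and the log2 fold change was 1.86 (standard error 0.09, adjusted p = 0.00030). RAB3A (ENSG00000105649.9) lies on chromosome 19 at 18196784 to 18204074 on the minus strand of GRCh38 in GENCODE v29, and the stretches printed above lie just upstream of it. The other RAB3 genes had smaller fold changes. RAB3B and RAB3D, found in endocrine and exocrine cells, had log2 fold changes of 0.49 and 0.46 (adjusted p = 0.038 and 0.039), lost on both scalings (0.082 to 0.73) and without any 1 library except sAKZ692 replicate 3 (0.059 to 0.12). RAB3C was at 15.9, 14.8 and 27.3 TPM with sAKZ692, against 20.8, 17.8 and 13.6 TPM with DMSO, with overlapping groups (adjusted p = 0.74) and a fold change that turned negative without replicate 3 (-0.15) and on both scalings.

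The composition of the RAB3 family was compared as shares of its summed TPM. RAB3A made up 63.2% ± 4.22 of the summed TPM of the 4 RAB3 genes with sAKZ692 and 35.98% ± 3.26 with DMSO, while RAB3C made up 21.0% ± 6.41 with sAKZ692 and 40.9% ± 3.71 with DMSO (SD, n = 3 each). RIMS3 made up 60.7% ± 8.59 of the 3 listed RIMS genes with sAKZ692 and 43.6% ± 1.97 with DMSO. SNAP25 made up 20.6% ± 5.34 of its 3 listed family members with sAKZ692 and 10.9% ± 1.52 with DMSO. VAMP2 made up 47.4% ± 0.856 of the 4 listed VAMP genes with sAKZ692 and 39.3% ± 2.26 with DMSO. SYT1 made up 52.1% ± 2.63 of the 9 listed synaptotagmins with sAKZ692 and 53.2% ± 0.346 with DMSO (exact permutation p = 0.6). For RAB3A, RAB3C, RIMS3, SNAP25 and VAMP2 the groups did not overlap and the exact two-sided permutation p was 0.1, the smallest that 3 against 3 allow. Adjusted over the 34 shares tested, the exact permutation value was 0.15 for each of these 5. Most of the 34 shares tested reached the same exact permutation p of 0.1, among them RAB3B, RAB3D, VAMP7, SNAP47 and RIMS4. That value therefore does not set RAB3A, RAB3C, RIMS3, SNAP25 and VAMP2 apart. The families are those in the table, and further members were not analysed here.

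**Figure D4:**
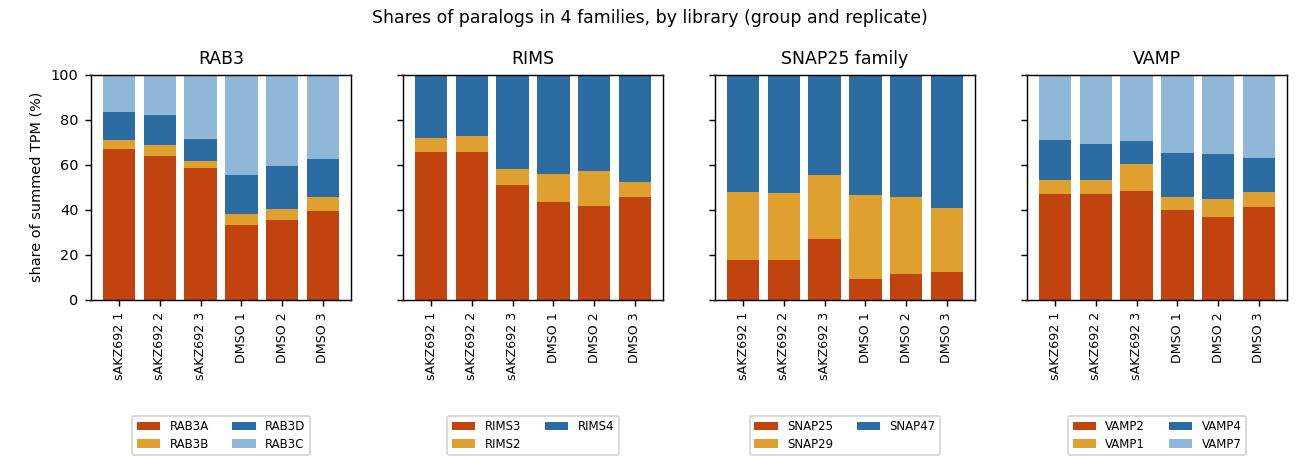
Share of the summed TPM, in percent, taken by each listed paralog of the RAB3, RIMS, SNAP25 and VAMP families in each library, sAKZ692 replicates to the left of DMSO replicates. RAB3A averaged 63.2% with sAKZ692 and 35.98% with DMSO, and SNAP25 20.6% with sAKZ692 and 10.9% with DMSO.

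Of the proteins embedded in vesicle membranes, SYP, SCAMP4 and SV2A passed of 7 tested, where 24.1% of all genes were higher. On median-ratio scaling SYP and SCAMP4 passed, against 15% of all genes. SYP, synaptophysin, an abundant synaptic vesicle protein and a diagnostic marker of neuroendocrine tumours, was at 114, 101 and 109 TPM with sAKZ692, against 55.1, 52.98 and 54.9 TPM with DMSO. The groups were tight and far apart, with a ratio of mean TPM of 1.99 and a log2 fold change of 0.98 (standard error 0.07, adjusted p = 0.00039). SCAMP4, a carrier protein of recycling membranes, was at 53.1, 54.6 and 49.0 TPM with sAKZ692, against 38.0, 33.7 and 37.3 TPM with DMSO (log2 fold change 0.51, adjusted p = 0.0041). SCAMP2 was at 52.2, 43.4 and 45.8 TPM with sAKZ692, against 36.3, 41.6 and 37.1 TPM with DMSO, and did not pass (adjusted p = 0.053), while without replicate 3 it did (log2 fold change 0.31, adjusted p = 0.025).

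SV2A, a synaptic vesicle glycoprotein and the target of levetiracetam, had a log2 fold change of 0.29 (adjusted p = 0.045). That call was lost under 9 of 16 settings, among them both scalings (adjusted p = 0.25 and 0.16) and without any 1 library except sAKZ692 replicate 3 (0.11 to 0.14). SCAMP3 was at 60.6, 59.1 and 59.6 TPM with sAKZ692, against 54.6, 57.5 and 56.3 TPM with DMSO, and did not pass (adjusted p = 0.32). The synaptogyrins SYNGR1 and SYNGR3 did not pass either, with log2 fold changes of 0.27 and -0.13. SYNGR1 was at 54.0, 54.7 and 40.6 TPM with sAKZ692, against 40.9, 40.3 and 41.1 TPM with DMSO, and passed without replicate 3 (0.41, adjusted p = 0.00072).

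SYN3, a synapsin that tethers vesicles to each other and to actin, was at 2.39, 1.52 and 3.26 TPM with sAKZ692, against 0.653, 0.341 and 0.799 TPM with DMSO. Its log2 fold change was 1.06 (adjusted p = 0.013), lost on quantile normalization (0.070) and without DMSO replicate 2 (0.054). SNAP91, the adaptor AP180 that assembles clathrin on retrieved vesicle membrane and is no SNARE despite its symbol, was at 8.59, 7.44 and 11.9 TPM with sAKZ692, against 3.09, 4.11 and 2.51 TPM with DMSO. Its groups did not overlap, and the log2 fold change was 1.28 (standard error 0.20, adjusted p = 0.0040). The 6 members under the minimum mean, STX3, STXBP2, SV2C, SYT6, SYT12 and UNC13C, were at or below 0.986 TPM in every library and were not tested.

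By mean level with sAKZ692, CPLX2 (176 ± 24.9 TPM), NSF (114 ± 4.17 TPM), SYT1 (111 ± 25.9 TPM) and SYP (108 ± 6.88 TPM) stood at the top, the last 3 within each other's spread. With DMSO the order at the top was CPLX2 (154 ± 8.74 TPM), NSF (108 ± 6.94 TPM), SCAMP3 (56.1 ± 1.45 TPM), SYT1 (54.4 ± 1.77 TPM) and SYP (54.3 ± 1.18 TPM), each SD over n = 3.

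**Figure D5:**
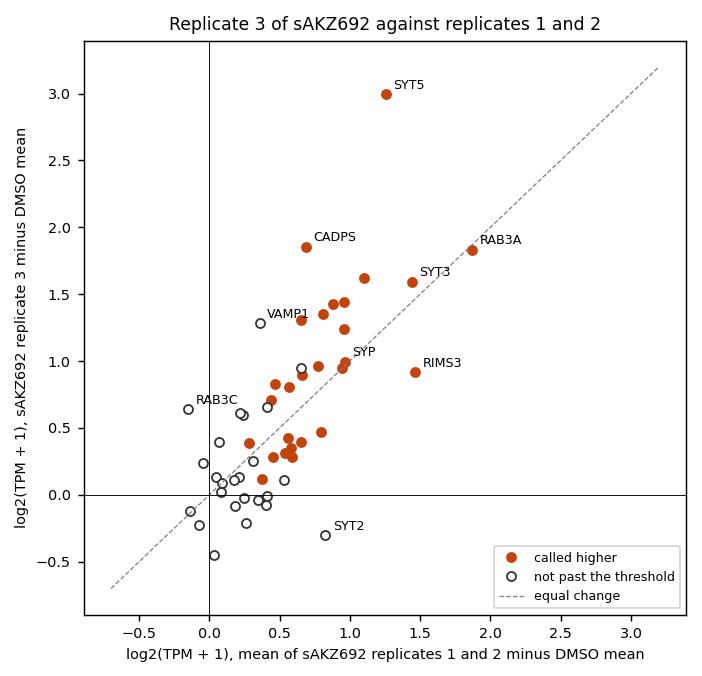
Change from the DMSO mean on log2(TPM + 1) for 52 of the 53 members tested, in sAKZ692 replicate 3 (y axis) against the mean of sAKZ692 replicates 1 and 2 (x axis). Points on the dashed line changed equally. SYT5, CADPS and VAMP1 lie above it and SYT2 and RIMS3 below it. Both axes share the DMSO mean.

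Replicate 3 of sAKZ692 was the highest of its group in 25 of the 53 tested members and the lowest in 22. Over all genes tested it was highest in 41.6% and lowest in 42.0%. It exceeded 1.5 times the mean of replicates 1 and 2 in 6 members and fell below that mean divided by 1.5 in 1, SYT2. The median member change from the DMSO mean was 0.47, 0.49 and 0.42 on log2(TPM + 1) in sAKZ692 replicates 1, 2 and 3, with 49, 48 and 43 of the 53 members above the DMSO mean.

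Genes of the same pathway outside the symbol rule were counted in the same fit, where 24.1% of all genes were higher and 8.5% lower. Without sAKZ692 replicate 3, 34.6% of all genes were higher and 14.5% lower. The counts higher and lower were then 14 and 0 for docking and release, 9 and 0 for transporters and pump, and 8 and 2 for retrieval. They were 1 and 0 for the exocyst, 5 and 0 for ER and Golgi SNAREs and their binding partners, and 3 and 0 for noradrenergic markers. Of 18 tested docking and release partners, 13 were higher and 0 lower (median log2 fold change 0.41), or 6 and 0 on median-ratio scaling. They included RIMBP2, which links RIM proteins to calcium channels, at 4.91 ± 1.97 TPM with sAKZ692 and 0.614 ± 0.243 TPM with DMSO. RPH3AL, the RAB3 and RAB27 effector NOC2, was at 30.3 ± 3.10 TPM with sAKZ692 and 14.0 ± 0.935 TPM with DMSO. NAPB, the neuronal cofactor that recruits NSF, was at 14.5 ± 3.03 TPM with sAKZ692 and 6.5 ± 0.153 TPM with DMSO (SD, n = 3). These 3 kept their calls in every setting run.

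Dense-core vesicle cargo showed 6 of 8 tested genes higher and 0 lower (median 0.73), or 5 and 0 on median-ratio scaling. SCG2, secretogranin II, was at 135 ± 22.9 TPM with sAKZ692 and 21.1 ± 1.53 TPM with DMSO, PCSK1N, an inhibitor of prohormone convertase, at 215 ± 18.9 TPM with sAKZ692 and 124 ± 5.0 TPM with DMSO, and CHGB, chromogranin B, at 54.7 ± 8.21 TPM with sAKZ692 and 26.3 ± 0.977 TPM with DMSO. CHGA, chromogranin A, was at 485, 511 and 183 TPM with sAKZ692 against a mean of 295 TPM with DMSO and did not pass (adjusted p = 0.58). Without sAKZ692 replicate 3 CHGA passed (log2 fold change 0.76, adjusted p = 5.9e-05), and 7 of the 8 cargo genes were higher. Of 14 tested vesicle transporters and proton pump subunits, 7 were higher and 0 lower (median 0.29), or 4 and 0 on median-ratio scaling. The proton pump subunit ATP6V0A1 was at 144 ± 27.2 TPM with sAKZ692 and 45.2 ± 4.83 TPM with DMSO (log2 fold change 1.64, adjusted p = 0.00054).

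The other lists lay nearer to the background. Of 17 tested genes of vesicle retrieval, 6 were higher and 1, the clathrin adaptor subunit AP2S1, lower (median 0.12, the AP2S1 call lost without any 1 library except sAKZ692 replicate 3), or 4 and 4 on median-ratio scaling. Among them DNM1, the neuronal dynamin that pinches off vesicles, was at 58.5 ± 4.96 TPM with sAKZ692 and 27.9 ± 2.46 TPM with DMSO, and EPS15, an endocytic scaffold, at 44.4 ± 7.24 TPM with sAKZ692 and 21.1 ± 1.22 TPM with DMSO. Of 5 tested exocyst subunits, EXOC6 alone was higher (9.25 ± 1.01 TPM with sAKZ692 and 4.55 ± 0.0981 TPM with DMSO). Of 17 tested genes of ER and Golgi SNAREs and their binding partners, 4 were higher and 0 lower (median 0.09), or 0 and 1 on median-ratio scaling. The calls higher include NAPA and NAPG, which are shared with the docking list and are not SNAREs.

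Lineage markers were read beside these counts. The table held 10 of the 15 noradrenergic neuroblastoma markers listed and 5 of the 13 mesenchymal and stromal markers listed. Of 10 tested noradrenergic neuroblastoma markers, 2, ELAVL4 and TBX2, were higher and 0 lower (median 0.40), or 1 and 1 on median-ratio scaling. HAND1, DDC and TH stood highest in sAKZ692 replicate 3, with log2 fold changes of 0.52, 0.63 and 1.11 that did not pass. Without that library those values were -0.17, 0.079 and 0.56, while that of TBX2 went from 0.65 to 0.92. The median of 0.40 therefore leaned on replicate 3. Leaving out DMSO replicate 3 ended the ELAVL4 call, and leaving out any 1 library but sAKZ692 replicate 3 ended the TBX2 call. The list's summed TPM was 3168, 3083 and 3713 with sAKZ692 and 2924, 3014 and 2869 with DMSO. Of 4 tested mesenchymal markers, 1, THY1, was higher and 0 lower (median 0.02), or 0 and 0 on median-ratio scaling. Without sAKZ692 replicate 3, 1 was higher and 2 were lower, VIM (log2 fold change -0.30, adjusted p = 0.0014) and TWIST1 (-0.15, adjusted p = 0.036). Their summed TPM, with the untested DCN, was 902, 847 and 1694 with sAKZ692, against 1012, 1038 and 995 with DMSO. VIM made up most of the excess in sAKZ692 replicate 3, at 1334 TPM there. The part of these markers in the results above was not tested.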

How the data were processed

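RNA of 6 IMR32 libraries, 3 with 20 µM sAKZ692 and 3 with DMSO for 24 h, was sequenced as single-end reads, per the labels' protocols. The authors deposited TPM per gene symbol, and kallisto is named in the submitters' processing notes. Not given in the sources used here are its version, the annotation, the genome build and whether strand was used. All 6 columns matched a sample title. TPM holds no counts, so the depth reached per library is unknown and counting intervals could not be had.

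Values were compared as log2(TPM + 1), for genes averaging 1 TPM or more, with limma 3.58.1 (R 4.3.3) with a mean-variance trend, two-sided, and p-values were adjusted by Benjamini-Hochberg over all 9137 genes. On this scale the change of low genes is understated. The fit was also run on simulated data, and that outcome is not reported here. Shares were compared by exact permutation over libraries. Members, roles and lists were chosen with earlier results of these data known. Library values are given for most members past the threshold, for the most abundant member of most roles and for the largest change that did not pass. VAMP7, STX4, SV2A, RAB3B and RAB3D, the called members with the smallest log2 fold changes, are given without library values. So is STX18, the most abundant syntaxin of internal membranes. Up to 3 genes are named per list. AP2S1, CHGA, DDC, HAND1, MYCN, NAPA, TH, TWIST1 and VIM were named outside this rule after their values were seen. The Schwann and glial list, and the values of some single genes, are not reported here.

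Same-numbered libraries deviated from their group means with correlations of 0.061, -0.025 and 0.042, so the numbers were not treated as pairs. Gene positions and exons are from GENCODE v29 (GRCh38) and promoters from RefSeq (GRCh38.p14), matched by symbol. The alternatives were other pseudocounts, filters, scalings and limma settings, a block for replicate number, and each library left out in turn.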

Additional observations from a re-analysis of the deposited data

How the results depend on the processing

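Of the 28 calls, 16 were kept in each of the 16 alternative settings that tested the gene, and 17 were kept whichever library was left out. Members called higher numbered 16 on quantile normalization and 18 to 34 with 1 library left out, and 1 was called lower on median-ratio scaling. Over all genes, 2204 higher and 777 lower calls became 1369 and 1478 on median-ratio scaling and 1073 and 1188 on quantile normalization. With array weights 1324 were lower, and with 1 library left out 1213 to 3163 were higher and 404 to 1321 lower. The members' median was 0.39 with no filter, 0.42 at a mean of at least 5 TPM, 0.35 on median-ratio scaling, 0.21 on quantile normalization and 0.42 to 0.51 with 1 library left out. With a replicate block, 24 members were higher and 0 lower, against 28 and 0 without it. In deviations from group means, sAKZ692 replicates 1 and 3 correlated best with their same-numbered DMSO libraries (0.061 and 0.042). Replicate 2 of sAKZ692 correlated best with DMSO replicate 1 (0.041), and pairing was not established. No called member changed sign. Among members not called, median-ratio scaling gave log2 fold changes of -0.074 for NSF, -0.029 for RAB3C, -0.059 for SCAMP3, -0.029 for STX17, -0.093 for STX18, -0.045 for STXBP3 and -0.077 for STXBP4. Quantile normalization gave -0.087 for RAB3C, -0.24 for RIMS2, -0.21 for STX17, -0.10 for STX18, -0.027 for STX6, -0.12 for STXBP3, -0.15 for STXBP4 and -0.17 for STXBP5. Array weights gave -0.17 for RAB3C. With 1 library left out, the log2 fold change ran between -0.15 and 0.27 for RAB3C, -0.19 and 0.42 for RIMS2, -0.072 and 0.14 for STX18, -0.014 and 0.13 for STXBP4, and -0.24 and 0.031 for SYNGR3. Share differences in percentage points ran between -0.516 and 2.22 for VAMP1, -0.550 and 0.067 for STXBP5, -1.74 and 0.190 for SYT2 and -0.634 and 1.31 for SCAMP2. The cause of these changes was not tested. TPM without counts does not show what depth limits.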
